A study of Homo sapiens with 12 samples.

Results

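The 7 genes described here encode the membrane proteins and inhibitors that start, limit and sense blood coagulation at a cell surface: thrombomodulin (THBD), tissue factor (F3), tissue factor pathway inhibitor (TFPI), TFPI2, the endothelial protein C receptor (PROCR), and the protease-activated receptors PAR1 (F2R) and PAR2 (F2RL1). Their members on the array were all probe sets annotated to only 1 of these symbols, which gave 14 of 54675 probe sets. These 14 probe sets cover 6 of the 7 genes, among 19775 genes with such a probe set on the array, because no probe set carries the symbol F2RL1 alone in the annotation used here, and F2RL1 was not analysed here. The genes were chosen by their measured signals in these arrays, with the difference between CL1-5 and CL1-0 known, so that difference is described below without p-values, and counts of calls for it are description only.

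RNA came from CL1-5 and CL1-0, human lung adenocarcinoma (non-small cell lung cancer) lines that share a parental line, with CL1-5 as the more invasive subline. The 4 groups of 3 arrays were CL1-5 under a direct-current electric field of 300 mV/mm for 2 h, CL1-5 kept for 2 h at 0 mV/mm, CL1-0 under the same field, and CL1-0 at 0 mV/mm. All cells were cultured overnight in a microfluidic chip in medium with serum, held in serum-free medium during the 2 h, and taken off with trypsin before RNA extraction. The labels call the replicates biological, each line is a single cultured line, and the questions were the contrast between the lines and the response of each to the field.

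Tissue factor is the membrane receptor for factor VIIa, and their complex activates factor X and begins the clotting cascade. TFPI blocks that complex together with factor Xa, while TFPI2 is a related Kunitz-type inhibitor that acts on trypsin, plasmin and other serine proteases and is a frequent target of promoter methylation in tumours. Thrombomodulin binds thrombin and turns it towards activation of protein C, which PROCR presents on the membrane, and PAR1 is the receptor that thrombin cleaves to signal into the cell. Tumour cells often carry tissue factor and PAR1, whereas thrombomodulin is best known from endothelium.

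Values are linear array signals, or log2 of them where stated, and a probe set's signal is set only against its own signal in other groups. The median signal of an array lay between 60.7 and 72.4, and values below it are called low. All 14 probe sets passed the filter on low values, which asked for a signal above the array's own median on at least 3 arrays. Replicate 1 of each group stood apart: dap, one of the poly-A spike-ins that control the labelling step, read 3.64 to 14.5 on its 4 arrays and 1252.6 to 1664.6 on the other 8. In bulk RNA, fewer cells with a transcript and less transcript per cell cannot be told apart. The number of arrays limits the precision.

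Thrombomodulin RNA was strong in CL1-5 and low in CL1-0, whether or not the field was on. The leading THBD probe set, the one with the highest mean (203887_s_at), read 18943.2, 9399.3 and 16959 on the CL1-5 arrays under the field and 18376.8, 8616.1 and 9149.6 on the CL1-5 arrays without it. In CL1-0 it read 39.3, 39.3 and 30.3 under the field, and 1.21, 29.5 and 45.4 without it. Every CL1-5 array was above every CL1-0 array, and all 6 CL1-0 values were below the median of their own array. The groups ordered as CL1-5 under the field at a mean log2 signal of 13.82 ± 0.54, CL1-5 without it at 13.47 ± 0.61, CL1-0 under the field at 5.17 ± 0.22 and CL1-0 without it at 3.55 ± 2.86 (SD, n = 3 each), and within each line the 2 neighbours overlapped.

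Because the CL1-0 signals were low, the difference between the lines has only a bound. With every low value raised to its array's median, thrombomodulin was at least 219.3-fold higher in CL1-5 under the field and at least 179.1-fold higher without it. Such folds are estimates that take the array median as the level of the low group.

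The other THBD probe sets showed the same order of lines. Probe set 203888_at spanned 4600.7 to 11835.9 in CL1-5 under the field and 4118.8 to 15311.1 without it, against 20.6 to 58 and 12.9 to 25.3 in CL1-0, which made it at least 117.2-fold higher under the field and at least 102.1-fold higher without it. Probe set 237252_at spanned 756.3 to 2874.9 and 1181.2 to 2005.4 in CL1-5, against 7.67 to 38.6 and 22.6 to 37.6 in CL1-0, at least 23.7-fold and 24-fold higher under and without the field. In CL1-5, 203887_s_at and 203888_at were highest on replicate 1 in both settings. They read 18943.2 and 11835.9 there under the field and 18376.8 and 15311.1 without it. Probe set 237252_at was lowest on replicate 1 of CL1-5 under the field, at 756.3, and highest on it without the field, at 2005.4.

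PROCR, the receptor that holds protein C for activation by the thrombin and thrombomodulin complex, did not separate the lines. Its only probe set (203650_at) read 965.8, 2503.1 and 2329.8 in CL1-5 under the field and 1602.3, 1909.1 and 1571.8 without it. In CL1-0 it read 1115.9, 1755.8 and 1585.4 under the field and 913.3, 2430.6 and 1334.7 without it. All 12 values were above their array's median, the 4 groups overlapped, and the log2 difference between the lines was 0.29 ± 0.41 under the field and 0.23 ± 0.41 without it (SE).

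**Figure D1:**
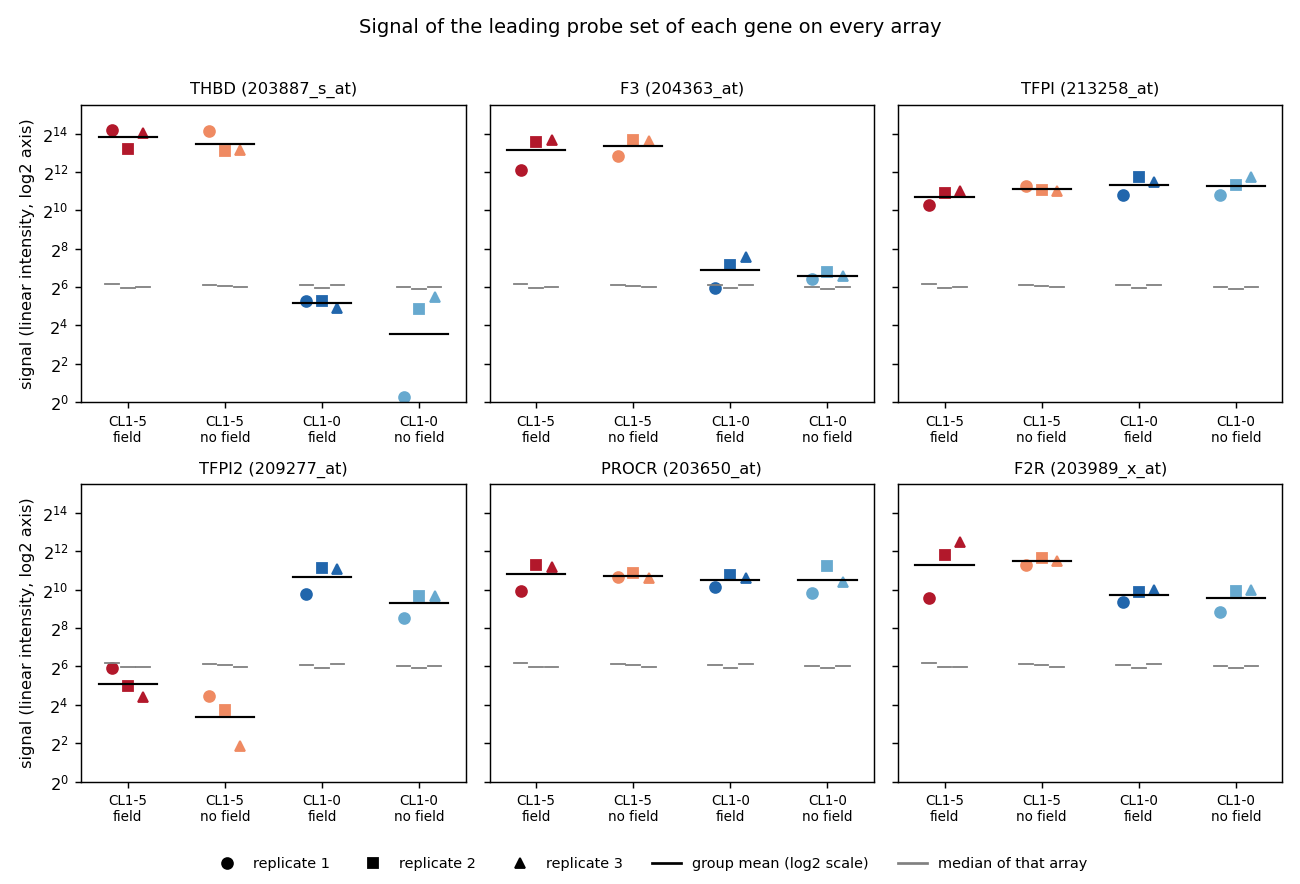
Signal of the leading probe set of each of the 6 genes on the 12 arrays, on a log2 axis, with groups along the horizontal axis. Symbols mark replicate numbers, black lines the group means of log2 signal and short grey lines the median of each array. THBD and F3 stood far higher in CL1-5, TFPI2 stood far higher in CL1-0, and TFPI and PROCR overlapped between the lines.

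Tissue factor RNA was also far higher in CL1-5. F3 (204363_at) read 4483.9, 12182.5 and 13164.9 in CL1-5 under the field and 7324.1, 13070.9 and 12633.4 without it. In CL1-0 it read 61.6, 141.9 and 190.7 under the field and 85.8, 110.5 and 96.7 without it. The lines did not overlap, and in CL1-0 the transcript stood above the array median on 2 of 3 arrays under the field and on 3 of 3 without it. Unlike for THBD, F3 was therefore measured in CL1-0 at a level near, and mostly above, the median.

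Mean log2 F3 signals were 13.13 ± 0.87 in CL1-5 under the field, 13.38 ± 0.47 in CL1-5 without it, 6.89 ± 0.85 in CL1-0 under the field and 6.6 ± 0.18 in CL1-0 without it (SD, n = 3 each). The log2 difference between the lines was 6.24 ± 0.47 under the field and 6.78 ± 0.47 without it (SE). Both CL1-5 groups were lowest on replicate 1.

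The F3 promoter is shown because F3 was far higher in CL1-5, and the TFPI2 promoter because TFPI2 was far lower there. The sequences are the 250 bases before the RefSeq start of each gene on GRCh38.p14, printed in the direction of the gene, for F3 at chr1:94541760-94542009 on the minus strand and for TFPI2 at chr7:93890754-93891003 on the minus strand. Capitals mark matches, on both strands, to an AP-1 site (TGANTCA), a GC box (GGGCGG), an EGR1 site (GCGNGGGCG, which can overlap a GC box) and a TATA box (TATAAA).
F3: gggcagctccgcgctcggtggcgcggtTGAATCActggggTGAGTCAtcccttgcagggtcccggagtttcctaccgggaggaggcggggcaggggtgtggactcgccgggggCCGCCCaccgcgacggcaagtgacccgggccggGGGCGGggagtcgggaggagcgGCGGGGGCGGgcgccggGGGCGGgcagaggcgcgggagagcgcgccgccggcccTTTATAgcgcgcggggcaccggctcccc
TFPI2: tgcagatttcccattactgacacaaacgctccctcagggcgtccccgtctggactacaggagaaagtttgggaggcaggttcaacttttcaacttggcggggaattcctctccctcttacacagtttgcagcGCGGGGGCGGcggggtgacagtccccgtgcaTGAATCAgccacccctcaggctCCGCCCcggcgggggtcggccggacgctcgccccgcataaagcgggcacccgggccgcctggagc
In F3, AP-1 letters begin at -223 and -210 from the start, GC boxes at -137, -104, -78 and -65, an EGR1 match at -82 that overlaps the GC box at -78, and a TATA box match at -28 that reads on the strand opposite to the gene. In TFPI2 they begin at -87 for AP-1, at -114 and -65 for GC boxes and at -118 for EGR1, with no TATA match. Both sequences are rich in G and C, at 78.0% for F3 and 64.4% for TFPI2. Of 35116 RefSeq promoters of the same length, 6.57% hold the AP-1 letters, 42.6% a GC box, 8.41% the EGR1 letters and 10.7% the TATA box. The TFPI window, at 38.4% G and C, held none of the 4 motifs, and that of PROCR held GC boxes at -153 and -22 and a TATA box at -82. A match is a run of letters and not a measured site, and of the 7 genes 5 were found in the promoter table, without THBD and F2R.

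Of the Kunitz-type inhibitors, TFPI2 RNA was low in CL1-5 and strong in CL1-0. Its leading probe set (209277_at) read 60, 31.2 and 21.2 in CL1-5 under the field and 22.4, 13.4 and 3.58 without it. In CL1-0 it read 864.6, 2271.3 and 2130.6 under the field and 375.2, 822.2 and 803 without it. The lines did not overlap, and all 6 CL1-5 values were below the median of their own array.

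The second TFPI2 probe set (209278_s_at) read 3.22, 4.53 and 5.54 in CL1-5 under the field and 3.07, 3.03 and 16.4 without it, against 2218.7, 2675.2 and 2684.4 and 1746.6, 1384.9 and 1372.1 in CL1-0. The CL1-5 signals were low on every array, so the difference again has only a bound. Raising low values to the median of their array left TFPI2 at least 24.5-fold lower in CL1-5 under the field and at least 9.4-fold lower without it by 209277_at, and at least 38.2-fold and 22.3-fold lower by 209278_s_at.

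TFPI RNA was present in both lines, and its 5 probe sets did not give 1 answer. The leading one (213258_at) read 1227.9, 1900.4 and 2082.6 in CL1-5 under the field and 2500.4, 2122.4 and 2054 without it, against 1782.2, 3378.1 and 2838.8 and 1775.4, 2583.8 and 3412.9 in CL1-0. Its lines overlapped in both settings, with log2 differences of -0.6 ± 0.31 under the field and -0.17 ± 0.31 without it (SE). The next 2 probe sets separated the lines in both settings.

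Probe set 210664_s_at read 1669.3, 1369.5 and 1581 in CL1-5 under the field and 1939.2, 1360.3 and 1168.1 without it, against 2669.6, 3542.5 and 3731.1 and 2591.2, 2156.4 and 4878.5 in CL1-0, a log2 difference of -1.1 ± 0.31 under the field and -1.05 ± 0.31 without it (SE). Probe set 210665_at read 418.4, 758.4 and 757.6 and 457, 475.1 and 429.6 in CL1-5 under and without the field, against 1549.4, 2216.7 and 3148.8 and 1335.7, 1030.5 and 4393.6 in CL1-0, a log2 difference of -1.83 ± 0.48 and -2.01 ± 0.48 (SE). The second of these was -1.37 when replicate 3 of CL1-0 without the field, at 4393.6, was left out. Probe set 209676_at gave log2 differences of -0.92 ± 0.35 under the field, where the lines did not overlap, and -0.15 ± 0.35 without it, where they did. These differ by -0.77 in the test of the field response between the lines (limma adjusted p = 1). Probe set 214378_at was weak, at 48.2 to 94.8 in CL1-5 and 9.25 to 128.4 in CL1-0, and the lines overlapped in both settings. The annotation used here does not say which TFPI transcripts each probe set reads.

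**Figure D2:**
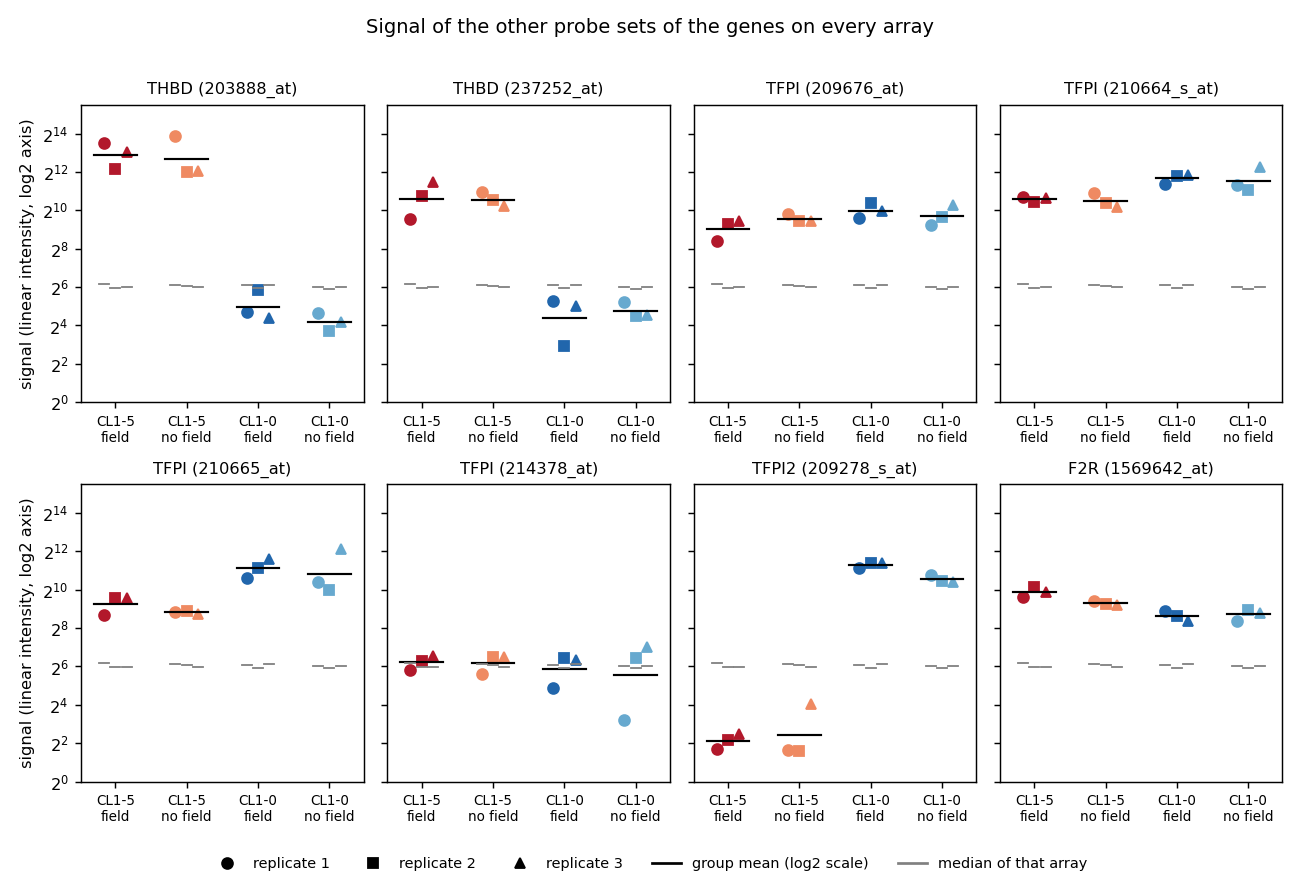
Signal of the other 8 probe sets of THBD, TFPI, TFPI2 and F2R on the 12 arrays, on a log2 axis, with groups along the horizontal axis; symbols mark replicates, black lines group means of log2 signal and grey lines array medians. Both further THBD probe sets were high in CL1-5, the second TFPI2 probe set was high in CL1-0, and the TFPI probe sets differed among themselves.

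F2R, the thrombin receptor PAR1, was present in both lines and somewhat higher in CL1-5. Its leading probe set (203989_x_at, whose suffix marks probes that may also match other transcripts) read 762.5, 3609 and 5707 in CL1-5 under the field and 2483.5, 3223.7 and 2876.2 without it. In CL1-0 it read 666.6, 928.5 and 1030.6 under the field and 460, 963 and 1005.2 without it. The lines were apart without the field, and overlapped under it only through replicate 1 of CL1-5.

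The log2 difference of 203989_x_at between the lines was 1.54 ± 0.59 under the field and 1.9 ± 0.59 without it (SE). Under the field it was 2.4 without replicate 1 of CL1-5 and 0.95 without replicate 3 of CL1-5. Over the 8 arrays with the spike-in signal it was 2.21 ± 0.21 under the field and 1.63 ± 0.21 without it. The second probe set (1569642_at) read 779.7, 1129.4 and 929.2 in CL1-5 under the field and 686.4, 611.5 and 592.5 without it, against 473.9, 390.7 and 326.2 and 336.4, 495.8 and 445 in CL1-0. It separated the lines in both settings, with log2 differences of 1.25 ± 0.25 under the field and 0.58 ± 0.25 without it (SE).

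**Figure D3:**
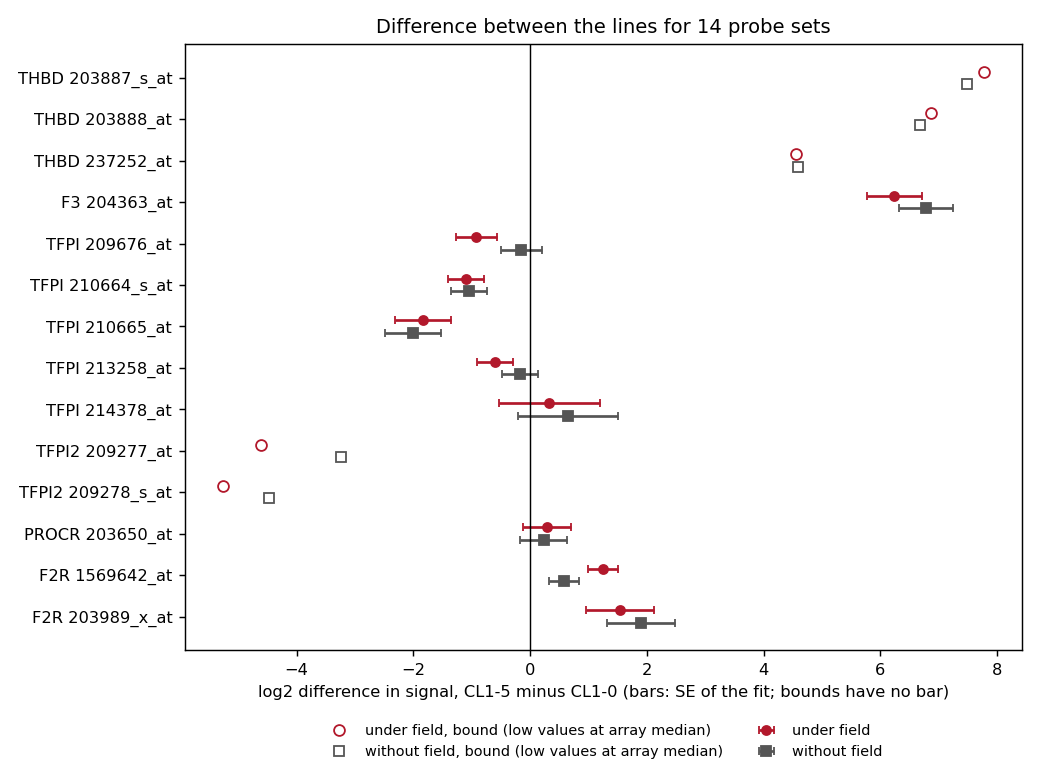
Log2 difference in signal, CL1-5 minus CL1-0, for the 14 probe sets under the field and without it, with SE of the limma fit as bars and a line at no difference. Open symbols without bars are bounds for THBD and TFPI2, with values below the array median raised to it. The THBD bounds lay between 4.56 and 7.78 and F3 at 6.24 and 6.78, the TFPI2 bounds between -5.26 and -3.23, and TFPI, PROCR and F2R between -2.01 and 1.9.

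Set against the whole array, and as description only, 9 of the 14 probe sets passed the threshold between the lines under the field in the limma fit at an adjusted p of 0.05 (Benjamini-Hochberg), 5 higher and 4 lower in CL1-5, where 13.4% of all 31890 tested probe sets passed, 7.03% higher and 6.41% lower. Without the field 8 of the 14 passed, 4 higher and 4 lower, where 12.1% of all passed, 6.53% higher and 5.58% lower. In each setting 2 of the 4 lower were TFPI probe sets whose calls depended on the processing. The call of 210664_s_at ended in 6 of 23 alternatives under the field and 11 of 23 without it. That of 210665_at ended in 4 and 2 of 23. With the replicate number as a block, 11 of the 14 passed under the field and 9 without it, where 31.6% and 28.5% of all passed. Under the field the lines did not overlap for 5 probe sets with CL1-5 higher and 5 with CL1-5 lower, where 30.8% of all probe sets did not overlap, 14.6% higher and 16.2% lower. Without it these were 6 and 4, where 28.8% of all did not overlap, 14.3% higher and 14.5% lower. The median log2 difference of the 14 was 0.31 under the field and 0.41 without it, against -0.08 and -0.01 over all tested probe sets.

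No member passed the test of the field. In CL1-5, in CL1-0, averaged over the lines and for the difference in response between the lines, 0 of the 14 probe sets were called by limma after Benjamini-Hochberg adjustment, where 0% of all 31890 were called in each comparison. At an unadjusted p under 0.05 there were 2 of the 14 in CL1-5, 0 in CL1-0, 1 averaged and 0 for the difference in response, against 531, 337, 296 and 382 of all 31890. With the replicate block 0 of the 14 passed as well, where 0.00314% of all probe sets passed in CL1-0 and 0% in the other comparisons. The median log2 difference of the 14 was 0.06 in CL1-5 and 0.27 in CL1-0, against -0.02 and 0.01 over all tested probe sets.

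The member with the widest field difference on strong signals was TFPI2 in CL1-0. By 209277_at every CL1-0 array under the field (864.6 to 2271.3) was above every array without it (375.2 to 822.2), a 2.57-fold higher level. The log2 difference was 1.36 ± 0.67 (SE; 95% interval -0.11 to 2.83; limma adjusted p = 1, and 1 with the replicate block). The 3 replicate pairs gave 1.2, 1.47 and 1.41, all higher under the field.

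The second TFPI2 probe set was also higher under the field in all CL1-0 pairs. By 209278_s_at the field arrays (2218.7 to 2684.4) were all above those without it (1372.1 to 1746.6), 1.69-fold, with pair differences of 0.35, 0.95 and 0.97 and a fitted log2 difference of 0.75 ± 0.57 (SE; 95% interval -0.5 to 2.01; limma adjusted p = 1). These are the 2 of 14 probe sets whose field and no-field arrays did not overlap in CL1-0, both higher under the field, where 3.68% of all probe sets did not overlap, 2.16% higher and 1.52% lower. On the arrays with the spike-in signal alone the log2 differences were 1.44 and 0.96.

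In CL1-5, TFPI2 was low on every array, so its field difference there has no fold. By 209277_at the log2 difference was 1.74 ± 0.67 (SE; 95% interval 0.27 to 3.21; limma adjusted p = 1 and 0.725 with the replicate block), with pairs of 1.42, 1.22 and 2.57, and it was -0.02 once values below the array median were raised to it. By 209278_s_at the pairs gave 0.07, 0.58 and -1.57. The difference in response between the lines was 0.38 ± 0.95 for 209277_at and -1.06 ± 0.81 for 209278_s_at (SE; limma adjusted p = 1 for both), and with low values raised it was -1.38 and -0.78, which turns the sign for 209277_at.

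F2R had the only non-overlapping field difference in CL1-5, and in 1 of its 2 probe sets. By 1569642_at the CL1-5 arrays read 779.7, 1129.4 and 929.2 under the field, all above the 686.4, 611.5 and 592.5 without it. The log2 difference was 0.57 ± 0.25 (SE; 95% interval 0.03 to 1.11; limma adjusted p = 1 and 0.725 with the replicate block), with pairs of 0.18, 0.89 and 0.65. In CL1-5, 5.47% of all probe sets did not overlap, 2.64% with the field arrays higher and 2.83% lower. The 1 of 14 member probe sets is close to that share, so it does not set F2R apart.

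The leading F2R probe set (203989_x_at) gave -0.18 ± 0.59 in CL1-5 (SE; 95% interval -1.48 to 1.11), with pairs of -1.7, 0.16 and 0.99. Replicate 1 lay apart from the other pairs, and on the arrays with the spike-in signal alone the difference was 0.58. In CL1-0 the 2 probe sets gave log2 differences of 0.17 ± 0.59 for 203989_x_at and -0.1 ± 0.25 for 1569642_at (SE). The difference in response between the lines was 0.67 ± 0.35 for 1569642_at (SE; 95% interval -0.09 to 1.44; limma adjusted p = 1).

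**Figure D4:**
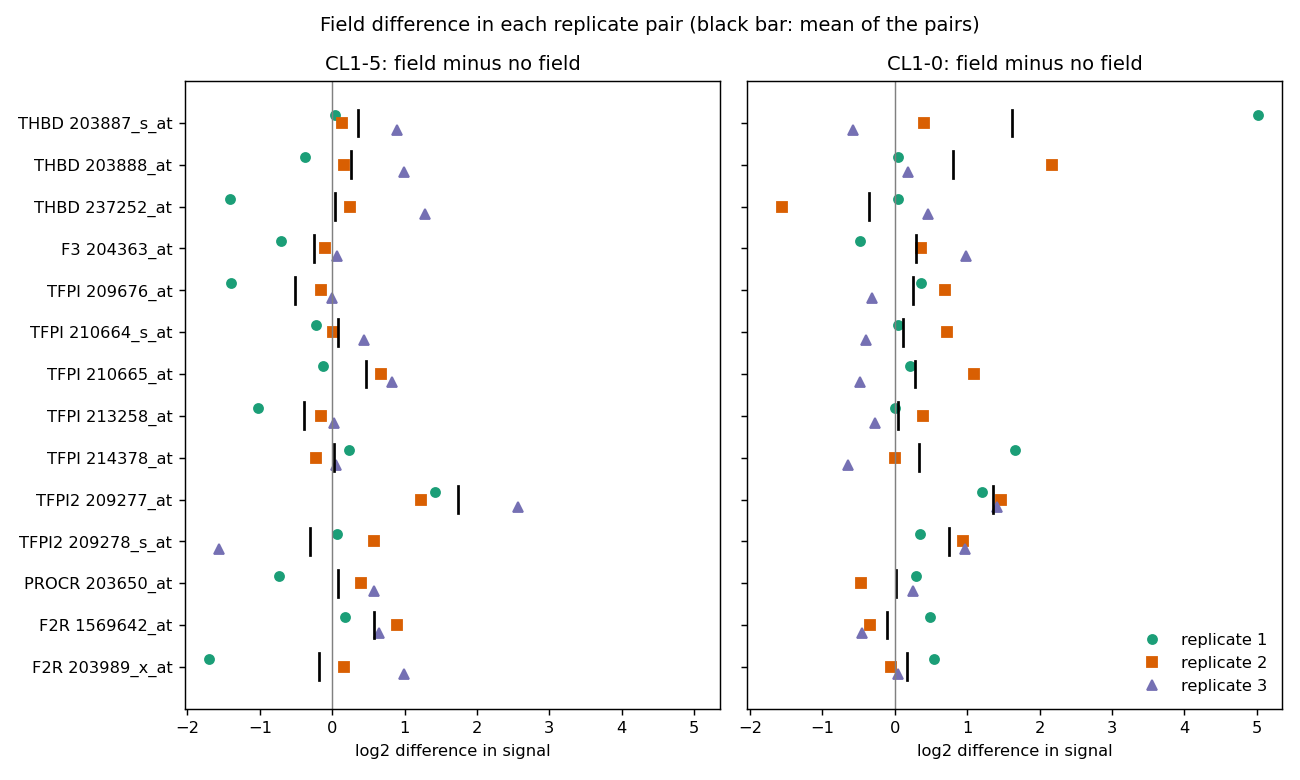
Log2 difference in signal, field minus no field, in each replicate pair for the 14 probe sets, in CL1-5 and in CL1-0; symbols mark the pair and black bars the mean of the pairs. The F3 and PROCR pairs lay on both sides of 0 in each line, while both TFPI2 probe sets were above 0 in all 3 pairs of CL1-0.

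For THBD, F3, PROCR and TFPI the 95% interval of every field difference within a line included 0. In CL1-5, where thrombomodulin was strong, the 3 THBD probe sets gave log2 differences of 0.35 ± 1.02, 0.26 ± 0.57 and 0.04 ± 0.62 (SE), and the interval of the leading one ran from -1.88 to 2.58. Its pairs gave 0.04, 0.13 and 0.89. In CL1-0, the value of 1.62 ± 1.02 for the leading probe set came with pairs of 5.02, 0.41 and -0.58, all between low signals, and was 0.06 once low values were raised.

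For F3, the field difference was -0.25 ± 0.47 in CL1-5 (95% interval -1.28 to 0.79), with pairs of -0.71, -0.1 and 0.06. In CL1-0 it was 0.29 ± 0.47 (95% interval -0.75 to 1.32), with pairs of -0.48, 0.36 and 0.98. PROCR gave 0.08 ± 0.41 in CL1-5 (95% interval -0.81 to 0.97) and 0.02 ± 0.41 in CL1-0 (95% interval -0.87 to 0.91), with pairs on both sides of 0 in each line. The 5 TFPI probe sets ranged from -0.52 ± 0.35 to 0.46 ± 0.48 in CL1-5 and from 0.04 ± 0.31 to 0.34 ± 0.86 in CL1-0 (SE). None of these field differences was called with 3 arrays per group, and the values do not show that levels were equal. The intervals are not adjusted for the number of probe sets tested, and they do not give the smallest difference the test could call.

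Genes whose pattern was nearest to each member were found by the root-mean-square difference of mean-centred log2 signals over the 12 arrays, among 13837 other genes. For THBD, with a range of 13.93, these were CDCP1 at 1.01, MMP1 at 1.16 and LY6K at 1.2. For F3, with a range of 7.74, they were ANGPT2 and CCNC at 0.53 and PTX3 at 0.63, and for TFPI2, with a range of 9.31, H2AC6 at 0.81, ARMCX2 at 0.86 and ZNF518B at 0.94. The 12 arrays share the split by cell line, so the likeness is a description of these arrays. Low values were not raised here. The THBD range therefore rests on the 1.21 of 1 CL1-0 array, and the TFPI2 range on the 3.58 of 1 CL1-5 array. For members with small ranges the nearest were DDHD1 and PLEKHA1 at 0.18 and ARL14EP at 0.19 for TFPI, EID2 at 0.21 and KRT10 and MRPL24 at 0.23 for PROCR, and ELL2 at 0.29, FAM201A at 0.31 and HSD17B6 at 0.32 for F2R.

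The other genes of the pathway were counted by their leading probe set in lists of coagulation factors, anticoagulants, receptor transducers, activating proteases, membrane proteins and transcription factors. The lists were also chosen with earlier results of these data known. Their counts and p-values between the lines are therefore a description and not independent support. Of all 13838 genes, 8.79% were higher and 8.27% lower in CL1-5 under the field, and 8.01% and 7.63% without it. Of the procoagulant factors, 6 of 16 were tested, and 0 were higher and 2 lower in CL1-5 in each setting. FGG, the gamma chain of fibrinogen, spanned 69.3 to 452.3 in CL1-5 under the field and 139.3 to 340.6 without it, against 6722.4 to 8270 and 5652.5 to 8577.6 in CL1-0. It was lower in CL1-5 by a log2 difference of -5.13 ± 0.57 under the field (SE; limma adjusted p = 0.000132) and -5.22 ± 0.57 without it (limma adjusted p = 0.000107), and by -4.34 under the field without replicate 1 of CL1-5 under the field.

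The second procoagulant gene called was FGA, the alpha chain, under the field (low on every CL1-5 array and at least 2.29-fold lower there, limma adjusted p = 0.0367) and FGB, the beta chain, without it (-3.01 ± 0.88, limma adjusted p = 0.0461). The FGA call ended in 9 of 23 alternatives (adjusted p 0.00343 to 0.12), among them each of 7 arrays left out: replicates 2 and 3 of CL1-5 under the field, all 3 of CL1-0 under the field, and replicates 2 and 3 of CL1-0 without it. The FGB call ended in 12 of 25 (adjusted p 6.59e-05 to 0.154, difference -3.63 to -1.88), among them replicates 2 and 3 of CL1-5 under the field, 1 and 3 of CL1-5 without it, and 2 and 3 of both CL1-0 groups. With the replicate block FGB was called under the field too (-2.66 ± 0.88, limma adjusted p = 0.0705, and 0.000316 with the block), as was F8, the cofactor of factor IX, in both settings (-0.92 ± 0.34 and -0.72 ± 0.34, limma adjusted p = 0.1 and 0.223, and 0.0065 and 0.0266 with the block). The plasma factors F2 (prothrombin) and F10 were below the median on every array of both lines, and F7, the partner of tissue factor, lay near it, at 48.9 to 142.6. The list's median log2 difference was -1.79 under the field and -1.25 without it, against -0.08 and -0.03 over all genes.

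Among 7 tested anticoagulant genes, 2 were higher and 1 lower in CL1-5 under the field, and 3 higher and 1 lower without it. PROC, the protein C zymogen that thrombomodulin and PROCR act upon, was below the median on all 6 CL1-5 arrays and read 299.8 to 819.9 and 177.6 to 879.3 in CL1-0 under and without the field. It was at least 7.33-fold lower in CL1-5 under the field (limma adjusted p = 0.00123) and at least 6.81-fold lower without it (limma adjusted p = 0.000466). SERPINA1, the inhibitor of neutrophil elastase, was higher by 2.75 ± 0.36 under the field (SE; limma adjusted p = 0.000426) and by 3.26 ± 0.36 without it (limma adjusted p = 0.000119). SERPINE2, an inhibitor of thrombin, was called higher in both settings, by 1.41 ± 0.43 under the field and 1.68 ± 0.43 without it (SE; limma adjusted p = 0.0492 and 0.0237). Its call ended in 17 of 25 alternatives under the field (adjusted p 0.0136 to 0.157), with 9 of 12 single arrays left out, the exceptions being replicate 2 of both groups under the field and replicate 1 of CL1-5 without it. Without the field it ended in 4 of 25 (adjusted p 0.00532 to 0.0878), without replicate 1 or 2 of CL1-5 or replicate 1 or 3 of CL1-0. ANXA5, which binds exposed phosphatidylserine, was called without the field, at 0.7 ± 0.21 (SE; limma adjusted p = 0.0472), and the call ended in 16 of 25 alternatives (adjusted p 0.00931 to 0.146), with any array left out other than replicate 1 of CL1-5 under the field. Under the field it was 0.5 ± 0.21 (limma adjusted p = 0.144, and 0.0468 with the replicate block).

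Proteases that cleave PAR1 or PAR2 included 3 of 10 tested genes that were higher in CL1-5, and 0 lower, in each setting. MMP1, an interstitial collagenase that also cleaves PAR1, was at least 180.2-fold higher in CL1-5 under the field (limma adjusted p = 2.76e-05) and at least 212.6-fold higher without it (limma adjusted p = 1.34e-05). The trypsin genes PRSS2 and PRSS3 were higher as well, at least 132.8-fold and 79.4-fold under the field (limma adjusted p = 1.2e-06 and 2.25e-06) and at least 88.5-fold and 89.2-fold without it (limma adjusted p = 2.1e-06 and 1.87e-06). Their probe sets carry the suffix for probes that may match other transcripts, and these near-identical genes cannot be separated with certainty.

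Among the other protease-activated receptors and their transducers, 11 genes were tested, of which 1 was higher and 3 lower in CL1-5 under the field and 1 higher and 2 lower without it. F2RL2, the thrombin receptor PAR3, was at least 8.24-fold lower under the field (limma adjusted p = 0.0147) and at least 9.31-fold lower without it (limma adjusted p = 0.0163), with the call lost under the field without replicate 1 of CL1-0, and without the field when replicate 1 of CL1-5 or replicate 1 or 2 of CL1-0 was left out (highest adjusted p 0.0525 and 0.0609). GNA13, a G protein alpha subunit, was lower by -0.65 ± 0.15 under the field (limma adjusted p = 0.0154) and -0.84 ± 0.15 without it (limma adjusted p = 0.00364), and its call under the field ended in 4 of 25 alternatives (highest adjusted p 0.0686), among them without replicate 3 of CL1-5 or replicate 1 of CL1-0. GRK5, a receptor kinase, was higher by 2.89 ± 0.26 under the field and 2.95 ± 0.26 without it (limma adjusted p = 2.55e-05 and 2.18e-05), but its mean over all its probe sets was 0.28 and 0.88 and was not called (adjusted p 0.605 and 0.0817). PLCB4, a phospholipase C, was called lower under the field, by -2.18 ± 0.51 (limma adjusted p = 0.015), and the call ended in 3 of 25 alternatives (highest adjusted p 0.0703), among them without replicate 2 or 3 of CL1-0. Without the field it was -1.27 ± 0.51 (limma adjusted p = 0.145, and 0.00258 in the blocked fit). There GNA11, a G protein alpha subunit, was 0.6 ± 0.22 (0.105, and 0.00813 with the block). The GNA11 probe set carries the suffix for probes that may match other transcripts.

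Of 10 tested genes of tissue factor activity and membrane exposure, 2 were higher and 1 lower in each setting. CAV1, the caveolar coat protein, was higher in CL1-5 by 1.44 ± 0.25 under the field (SE; limma adjusted p = 0.00285) and 1.68 ± 0.25 without it (limma adjusted p = 0.000984). PLSCR1, a phospholipid scramblase, was higher by 2.08 ± 0.46 and 2.22 ± 0.46 (limma adjusted p = 0.0111 and 0.008), with the call lost under the field without replicate 3 of CL1-5 (0.0511), and without the field on the mean of its probe sets (0.336). VKORC1L1, a vitamin K epoxide reductase, was lower by -1.93 ± 0.44 and -1.48 ± 0.44 (limma adjusted p = 0.0124 and 0.0475), and its call under the field ended without replicate 2 or 3 of CL1-0 (highest adjusted p 0.0587). Without the field that call ended in 13 of 25 alternatives (highest adjusted p 0.175), among them replicates 2 and 3 of every group but CL1-5 without the field, where they were 1 and 3. PDIA3, a disulfide isomerase, was 0.85 ± 0.29 under the field and 0.65 ± 0.29 without it, with a limma adjusted p of 0.0781 and 0.195, and of 0.00015 and 0.0011 with the replicate block.

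Of 14 tested transcription factors that act on THBD or F3, 4 were higher and 0 lower in CL1-5 in each setting. JUN, a subunit of AP-1, spanned 5422.4 to 6836 in CL1-5 under the field and 4837 to 6852.3 without it, against 324.6 to 554.1 and 341.5 to 445.4 in CL1-0, a log2 difference of 3.82 ± 0.24 and 3.9 ± 0.24 (SE; limma adjusted p = 2.25e-06 and 1.87e-06). The JUN probe set carries the suffix for probes that may match other transcripts. HIF1A, the oxygen-regulated factor, was higher by 1.39 ± 0.23 under the field and 1.49 ± 0.23 without it (limma adjusted p = 0.00186 and 0.00114). FOSL1, another AP-1 subunit, was higher by 2.28 ± 0.66 and 2.71 ± 0.66 (limma adjusted p = 0.0409 and 0.0192), with the call lost in 9 and 4 of 25 alternatives (highest adjusted p 0.156 and 0.0859). Under the field it was lost without any of the 3 arrays of CL1-5, replicate 2 or 3 of CL1-0, replicate 3 of CL1-5 without the field or replicate 2 of CL1-0 without it, and without the field when replicate 1 of CL1-5 or replicate 2 or 3 of CL1-0 was left out. Over all alternatives without the field its difference was 2.01 to 3.3. KLF6 was higher by 1.16 ± 0.17 and 1.08 ± 0.17 (limma adjusted p = 0.000948 and 0.00153), and on the mean of its probe sets the difference was 1.03 and 1.07 and was not called (adjusted p 0.194 and 0.185). KLF2 and KLF4, factors known to raise thrombomodulin in endothelium, were not called in either setting, at log2 differences of -0.52 ± 0.31 and 1.45 ± 0.65 under the field and -0.05 ± 0.31 and 1.91 ± 0.65 without it (SE; limma adjusted p = 0.337, 0.185, 0.959 and 0.0839). With the replicate block KLF4 was called without the field (0.0379), and SP1, at -0.59 ± 0.25 under the field and -0.68 ± 0.25 without it, in both settings (0.0102 and 0.00491, against a limma adjusted p of 0.167 and 0.116 without the block).

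**Figure D5:**
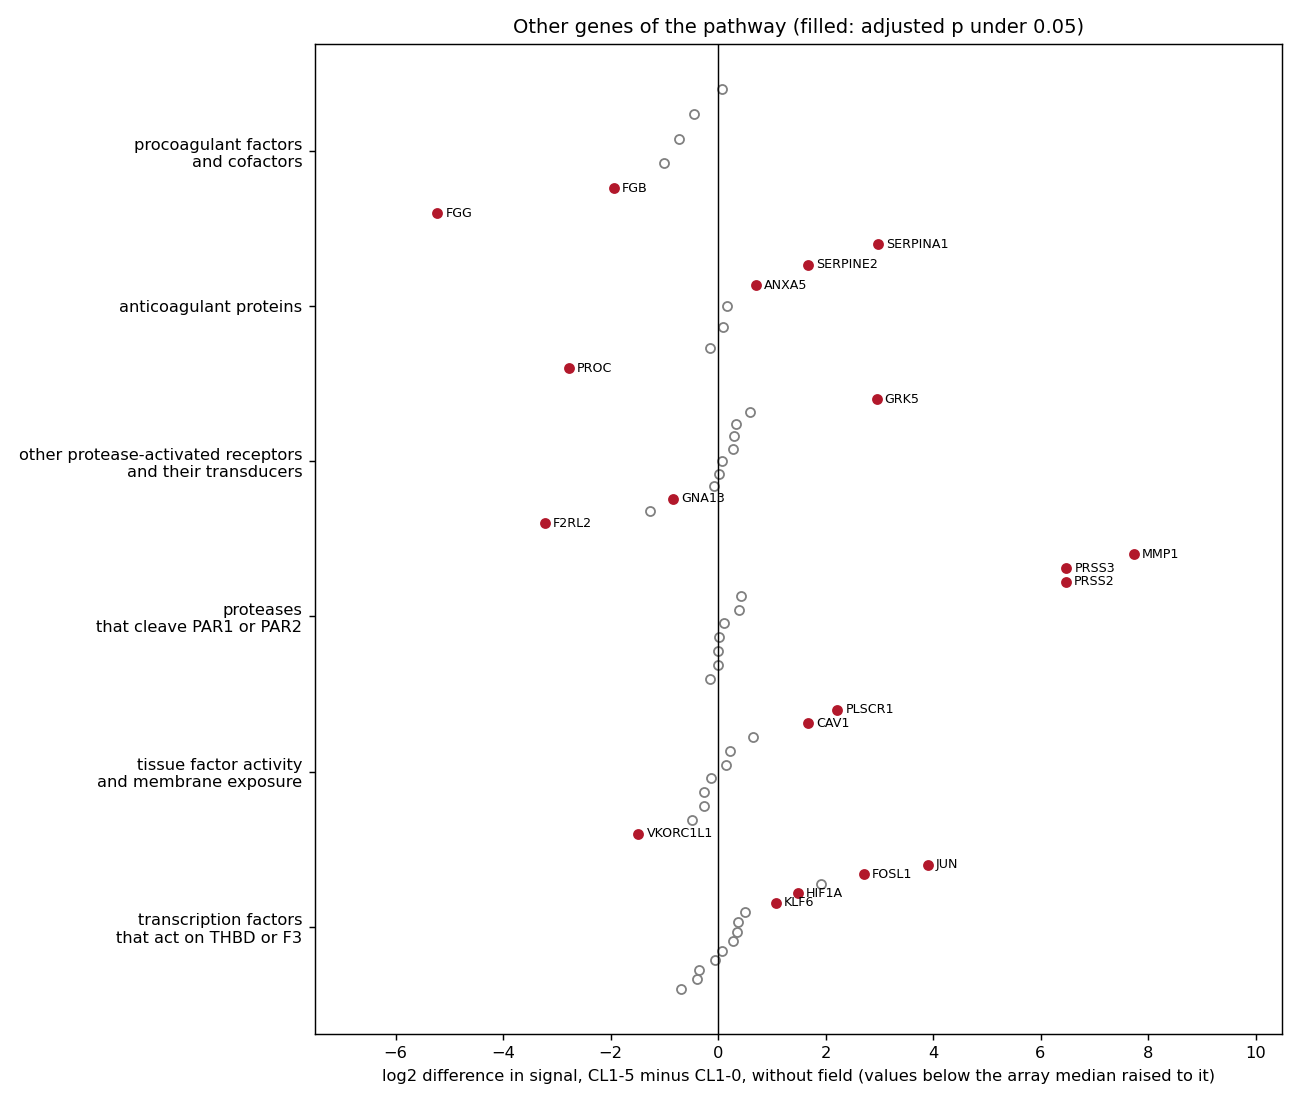
Log2 difference in signal, CL1-5 minus CL1-0 without the field, for the tested genes of each list, 1 point per gene, with filled points for genes at an adjusted p under 0.05 (limma, Benjamini-Hochberg). Values below the array median were raised to it. The filled points farthest to the CL1-0 side were FGG, F2RL2, PROC and FGB, and those farthest to the CL1-5 side were MMP1, PRSS2, PRSS3 and JUN. Further filled points lay nearer to no difference on both sides.

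In the comparisons of the field, 0 genes of any list were called in either line, where 0% of all genes were called. Among the activating proteases, the 2 genes of smallest p were TMPRSS11D at -1.76 ± 0.89 and MMP1 at 1.24 ± 0.73 in CL1-0, and KLK6 at 1.03 ± 0.63 and CTSS at 1.1 ± 0.8 in CL1-5 (SE; limma adjusted p = 1 each). With low values raised to their array's median these were -0.04, 0.6, 0.09 and -0.03. Among the transcription factors, the genes of smallest p in CL1-0 were RARA at 0.74 ± 0.62 and JUN at 0.13 ± 0.24 (SE). In CL1-5 they were KLF2 at -0.61 ± 0.31 and FOS at 0.83 ± 0.56 (SE). These transcription factor differences were the same with low values raised, and none was called.

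Markers were read beside these results. Of the epithelial markers, KRT18 spanned 15058.1 to 29021.9 in CL1-5 under the field and 13747.8 to 20908.5 without it, against 3435.4 to 19767.1 and 2421.5 to 14923.9 in CL1-0. EPCAM was below the median on all CL1-5 arrays. EPCAM and CDH1 were the 2 of 8 tested epithelial markers called lower in CL1-5 in each setting, with EPCAM at least 9.46-fold lower under the field and at least 8.43-fold lower without it (limma adjusted p = 0.00459 and 0.00898). KRT8 went the other way, by 1.41 ± 0.83 under the field and 2.15 ± 0.83 without it (SE; limma adjusted p = 0.326 and 0.13). With the replicate block KRT8 was called higher in CL1-5 without the field (0.0202) and not under it (0.102). The KRT18 and KRT8 probe sets carry the suffix for probes that may match other transcripts. The CDH1 call ended in 4 of 25 alternatives under the field and 10 of 25 without it (highest adjusted p 0.126 and 0.163), among them replicates 2 and 3 of both lines in each setting.

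Because thrombomodulin is best known from endothelium, endothelial markers were summed: the sum spanned 1960.8 to 4031.2 in CL1-5 under the field and 1937.8 to 5580.5 without it, against 831.2 to 1072.5 and 710.8 to 1205.9 in CL1-0. Of the 8 tested, 3 were higher in CL1-5 in each setting (TIE1, ESAM and CLDN5) and 0 lower, and with the replicate block PECAM1 was called in both settings as well and KDR under the field, and 6 and 7 of the 12 stood above the median on every CL1-5 array under and without the field, against 3 and 3 in CL1-0. The defining endothelial markers VWF and CDH5 were below the median on every array of both lines. Leukocyte markers summed to 124.9 to 249.2 in CL1-5 under the field and 174.4 to 228.9 without it, against 149.4 to 255.5 and 147.1 to 240 in CL1-0, and platelet markers to 315.4 to 388.7 and 355.2 to 418.2, against 419.3 to 580.1 and 431.3 to 591.2. The part of these marker differences in the THBD and F3 results was not tested.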

How the data were processed

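RNA of CL1-5 and CL1-0, 3 arrays per line and field setting, was hybridised as biotinylated cRNA, with 10 µg of total RNA per array. The deposited values are linear intensities made with MAS5, per the submitters' processing notes. The MAS5 version is not given in the sources used here, nor are detection calls. With the lowest and highest 2% left out, each array's mean was 500.07 to 500.08, so no array was rescaled. Values under 1 (3691) were raised to 1 before log2 was taken. Probe sets above their own array's median on at least 3 arrays were kept, 31890 of 54675, without 62 controls. By the platform annotation 41097 probe sets have 1 symbol, 1801 several and 11777 none, and only those with 1 symbol named genes.

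Differences were tested with limma version 3.58.1 (functions lmFit and eBayes, with a trend on the mean) under R 4.3.3, and tables were read by data.table, version 1.17.8. A joint fit held 4 group means over 12 arrays, with 6 comparisons and Benjamini-Hochberg adjustment over all 31890 probe sets at 0.05. The steps were tested on simulated data. The genes and lists were chosen with earlier results of these data known. Named genes are all member probe sets, the 3 genes nearest to each member, and of each list up to 4 called genes of largest difference, or the 2 of smallest p where none was called. The p-values measure the spread between arrays that the labels call biological replicates.

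Alternatives were quantile normalization, median centring, low values set to the 10th percentile (5.05) or to the array median, the filter dropped or tightened to 6 arrays above the 60th percentile, the leading probe set or the mean of probe sets per gene, no trend, only the groups compared, the replicate number as a block, the spike-in batch as a block, only the arrays with the spike-in signal, and each array left out in turn. The labels do not state a pairing. After removal of group means, the CL1-5 arrays of number 1, 2 and 3 correlated with their partners at 0.621, 0.454 and 0.27, and the CL1-0 arrays at 0.665, 0.396 and 0.385, all over 0.1, so the numbers were taken to pair the arrays. With other numbers the highest values were -0.389, 0.32 and 0.32 for CL1-5, and -0.417, 0.222 and 0.322 for CL1-0, so number 3 of CL1-5 correlated better outside its pair. For numbers 2 and 3 these values were over 0.1 as well, so that level cannot establish a pairing of those numbers. The pair differences and the replicate block rest on this assumption. Replicate 1 also forms the spike-in batch, which cannot be told apart from the pairing of that number.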

Additional observations from a re-analysis of the deposited data

How the results depend on the processing

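No called value changed sign under any alternative. In every alternative 0 member genes were called for the field in each line, averaged and for the difference in response. Over all 31890 probe sets the field called 0 in CL1-5, 1 with the spike-in block, 1 on the spike-in arrays alone, and 0 to 1 with each array left out (1 without replicate 1 of CL1-5 under the field). In CL1-0 it called 0, 1 with the replicate block, 1 with the spike-in block, and 0 to 1 with each array left out (1 without replicate 3 of CL1-0 under the field). Between the lines without the field, 3864 probe sets were called, against 2487 on leading probe sets per gene, 1960 on the mean of probe sets, 9094 with the replicate block, 8994 with the spike-in block, 7629 on the spike-in arrays and 2577 to 4362 with each array left out. Under the field 4286 were called, and in the same order of alternatives 2691, 2039, 10069, 9977, 8077 and 2635 to 4592. Counts per gene rest on fewer tests. Of the 6 member genes, 5 were called between the lines under the field, 3 on leading probe sets alone and 4 to 5 with each array left out, and 4 without the field, 3 to 5 with each array left out. TFPI in both settings and F2R under the field were counted only through probe sets other than the leading one. Other pathway genes called numbered 19 in each setting, 14 to 20 under the field and 13 to 19 without it with each array left out. In the main fit the leading probe sets of 2360 of all 13838 genes were called under the field and 2165 without it. The member and pathway counts are description only, and the genes tested in each list are given above. The averaged comparison and the difference in response have no value on only the groups compared. Low signals limit THBD in CL1-0 and TFPI2 in CL1-5, which have only a bound.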
